A study of Mus musculus with 9 samples.

Results

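The ISG15 conjugation system was followed across mouse brain tissue taken after injection of adeno-associated virus (AAV), a common vehicle for gene delivery. Its members were set by name as the modifier Isg15, the enzymes Uba7, Ube2l6, Herc6 and Trim25 that attach it, and the protease Usp18 that removes it. All 6 were found by gene identifier among the 1710 genes of the deposited table, where Uba7 is spelled UBA7. The study held 3 groups of 3 libraries, labelled PBS, LowDose and HighDose. All 9 came from mice of WT genotype and from tissue labelled "brain ctx", collected from the centre of the injected site 10 days after stereotaxic injection. PBS is a buffered salt solution, taken here as the vehicle from the sample titles, since the treatment label names a viral injection for every library. The labels tie no amount of virus to either dose name, give no strain, sex or age, and do not say whether each library is a different animal. The p-values therefore measure the spread between libraries, which may be technical.

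ISG15 is a ubiquitin-like protein made in large amounts in cells that respond to interferon. The activating enzyme UBA7 primes it, the conjugating enzyme UBE2L6 carries it, and a ligase joins it to newly made proteins, a step in which HERC6 is the main ligase in mice. USP18 cuts ISG15 from its targets, and it also binds the interferon receptor and damps its signal, so that the system holds both an effector and a brake of the interferon response. In brain, microglia, astrocytes and neurons can all switch these genes on.

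Library totals, recovered from the deposited counts and FPKM values, lay between 18.3 M and 23.7 M counts. For each of the 1710 listed genes, some pair of group means was at least 2-fold apart, so the table is a selected one and the tests below describe listed genes, not the transcriptome. Of the 6 cortical neuron markers looked for, 0 were among the listed genes, so the tissue label was not checked with them. All 8 striatal markers were listed. All 8 were called lower in HighDose than in PBS, where 10.7% of tested genes were called lower, and 7 of 8 were called lower in LowDose than in PBS, where 2.15% were (0 of 8 under TMM or DESeq2 size factors). Their summed levels in CPM, counts scaled by the library total, were 678 to 1017 in PBS, 241 to 565 in LowDose and 242 to 269.8 in HighDose. How much striatum each piece held was not measured, and its part in the values below was not tested.

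In HighDose all 6 genes stood far above PBS, and the modifier and its protease rose most. Isg15 had 212, 316 and 388 FPKM (fragments scaled by transcript length and library total) in the HighDose libraries, against 1.32, 3.58 and 1.71 FPKM in the PBS libraries. The lowest HighDose library was thus well clear of the highest PBS library, and the PBS libraries themselves were spread, with replicate 2 highest. The fitted log2 change was 7.10 ± 0.34 (SE, n = 3 each, adjusted p = 1.09e-22, edgeR quasi-likelihood test). Usp18, the protease, had 81.0, 114 and 144 FPKM in HighDose and 0.58, 1.09 and 0.83 FPKM in PBS. Its log2 change of 7.06 ± 0.31 (adjusted p = 1.99e-23, edgeR) was within 1 SE of that of Isg15. In bulk tissue, more cells that express a gene and more RNA per cell cannot be told apart.

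The enzymes that attach ISG15 rose less. Uba7, the activating enzyme, had 9.39, 14.05 and 15.45 FPKM in HighDose, against 0.72, 0.53 and 0.73 FPKM in PBS. That was a log2 change of 4.28 ± 0.27 (adjusted p = 1.63e-18, edgeR). Ube2l6, the conjugating enzyme, had 43.8, 67.4 and 68.7 FPKM in HighDose and 2.55, 3.16 and 3.1 FPKM in PBS. Its log2 change was 4.44 ± 0.25 (adjusted p = 5.35e-20, edgeR), close to that of Uba7. Herc6, the ligase, had 32.1, 48.5 and 57.3 FPKM in HighDose and 2.90, 1.77 and 2.33 FPKM in PBS, a log2 change of 4.29 ± 0.26 (adjusted p = 6.93e-19, edgeR). The changes of these 3 genes of successive steps thus lay between 4.28 and 4.44 on the log2 scale, within their SEs.

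Trim25 rose least of the 6. It encodes a ubiquitin ligase best known for acting on the RNA sensor RIG-I, and it has been described as an ISG15 ligase too. It had 9.60, 13.01 and 16.87 FPKM in HighDose, against 1.27, 1.44 and 1.59 FPKM in PBS, a log2 change of 3.15 ± 0.24 (adjusted p = 6.67e-16, edgeR). For none of the 6 genes did the HighDose and PBS libraries overlap.

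Among the 1583 tested genes, 86.3% were called higher in HighDose than in PBS and 85.8% had no overlap in that direction, so 6 of 6 members called is a share near the background. The sizes of change can be set beside it: the members had a median log2 change of 4.36 (3.15 to 7.10), and all tested genes a median of 1.90. In the order of fitted changes from the highest, Isg15 was 62nd and Usp18 65th of 1583, Ube2l6 274th, Herc6 293rd, Uba7 294th and Trim25 450th. When libraries were scaled by TMM within the listed genes, a method that sets the typical listed gene near no change, the median over tested genes became 0.19. The members then changed by 5.38 (Isg15), 5.34 (Usp18), 2.72 (Ube2l6), 2.56 (Uba7), 2.56 (Herc6) and 1.43 (Trim25), and all 6 calls held.

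**Figure D1:**
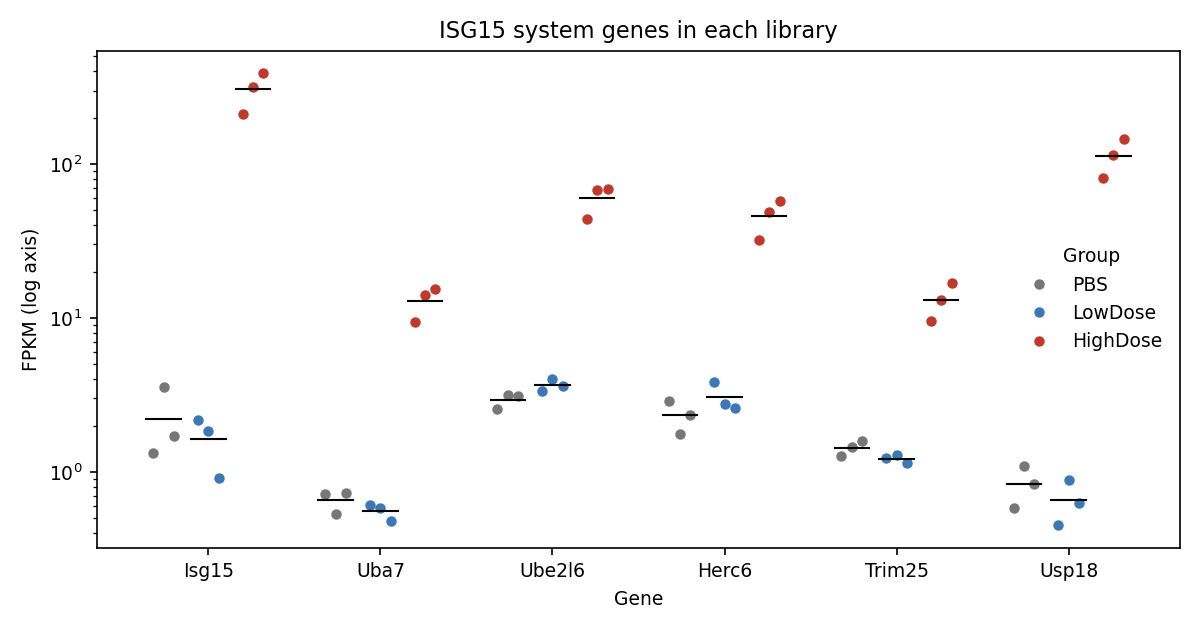
FPKM (log axis) of the 6 genes in each library, with PBS in grey, LowDose in blue and HighDose in red; points are libraries and black lines are group means (n = 3). The HighDose points lie above all others for every gene, and the PBS and LowDose points overlap for 5 of the 6 genes.

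The levels per length changed order as well as size. In HighDose, Isg15 averaged 305 ± 88.4 FPKM (SD, n = 3), followed by Usp18 at 113 ± 31.7, Ube2l6 at 59.96 ± 14.03, Herc6 at 46.0 ± 12.8, Trim25 at 13.2 ± 3.64 and Uba7 at 12.96 ± 3.17 FPKM. Ube2l6 and Herc6 overlapped between libraries there, as did Trim25 and Uba7, while the other neighbours in the order did not. In PBS, Ube2l6 was first at 2.94 ± 0.336 FPKM, then Herc6 at 2.33 ± 0.565, Isg15 at 2.20 ± 1.21, Trim25 at 1.43 ± 0.160, Usp18 at 0.833 ± 0.255 and Uba7 at 0.660 ± 0.113 FPKM. Only Trim25 and Usp18 were neighbours without overlap in PBS. Isg15 was the 7th most abundant of the 1710 listed genes by mean FPKM in HighDose and the 455th in PBS, and Usp18 was the 29th in HighDose and the 778th in PBS.

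Within each library, the make-up of the 6 transcripts shifted toward the modifier. Isg15 made up 55.3% ± 0.772 of the summed FPKM of the 6 genes in HighDose, against 20.6% ± 9.07 in PBS (SD, n = 3 each). Usp18 made up 20.6% ± 0.544 in HighDose and 7.90% ± 1.61 in PBS. The 4 attaching enzymes together held the rest, with Ube2l6 at 11.0% ± 0.935 in HighDose and 28.2% ± 1.63 in PBS, and Herc6 at 8.34% ± 0.102 in HighDose and 22.997% ± 7.88 in PBS. The HighDose libraries were alike in these shares although their summed FPKM ran from 388 to 691.

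**Figure D2:**
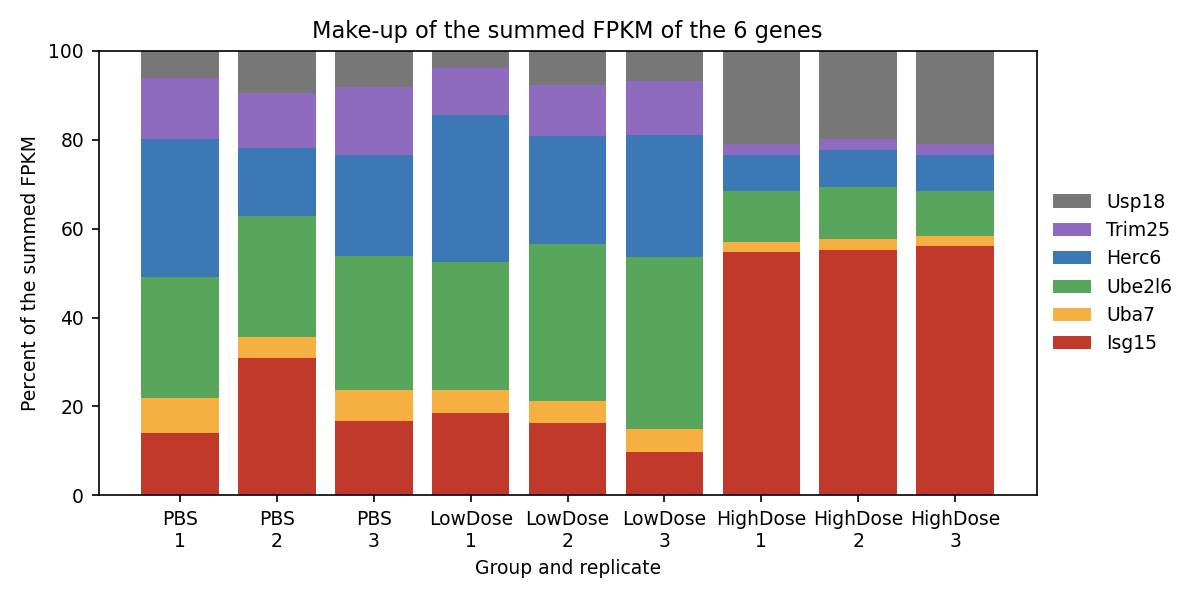
Share of each gene in the summed FPKM of the 6 genes (percent), 1 bar per library from PBS on the left through LowDose to HighDose. Isg15 takes 54.7% to 56.2% of the bars in HighDose and 14.1% to 30.9% in PBS.

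The ratio of Isg15 to each other member was then compared, a value that does not depend on how libraries are scaled. Isg15 stood at 22.6, 22.5 and 25.1 times the FPKM of Uba7 in HighDose, against 1.83, 6.75 and 2.34 times in PBS. It stood at 4.84, 4.69 and 5.65 times Ube2l6 in HighDose and 0.518, 1.13 and 0.552 times in PBS. The 1.13 is from PBS replicate 2, where count and FPKM of Ube2l6 imply a transcript of 1303 bases, against 1560 to 1562 bases elsewhere. That FPKM also enters the PBS mean and share of Ube2l6 above. For Herc6 the ratios were 6.61, 6.52 and 6.77 in HighDose and 0.455, 2.02 and 0.734 in PBS. The HighDose ratios were in each case above all PBS ratios, and the mean log2 ratio was higher in HighDose by 2.93 for Uba7, 2.88 for Ube2l6 and 2.92 for Herc6. Against Trim25 the ratios were 22.1, 24.3 and 23.0 in HighDose and 1.04, 2.49 and 1.08 in PBS, a mean log2 difference of 4.04. These ratios restate that Isg15 changed more than the attaching enzymes. Isg15 was 62nd of 1583 tested genes by change, so its ratio to most of them would rise too. The share of tested genes with such a rise was not counted.

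Usp18 was the exception. It was 65th of 1583 tested genes by change, so its ratio restates that it changed about as much as Isg15. The ratio of Isg15 to Usp18 was 2.62, 2.76 and 2.69 in HighDose, against 2.28, 3.28 and 2.06 in PBS, so that the libraries overlapped and the mean log2 difference was 0.11. An exact two-sided permutation test gave p = 0.1 for each of the other 4 ratios, the smallest that 3 against 3 libraries allow (0.125 adjusted over the 5 ratios), and p = 0.7 for Usp18 (0.7 adjusted). No ratio could have passed a threshold of 0.05 in this design. The HighDose ratios varied little, with SDs of 0.03 to 0.14 on the log2 scale, against 0.35 to 1.10 in PBS, where Isg15 rested on 17, 52 and 26 counts.

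**Figure D3:**
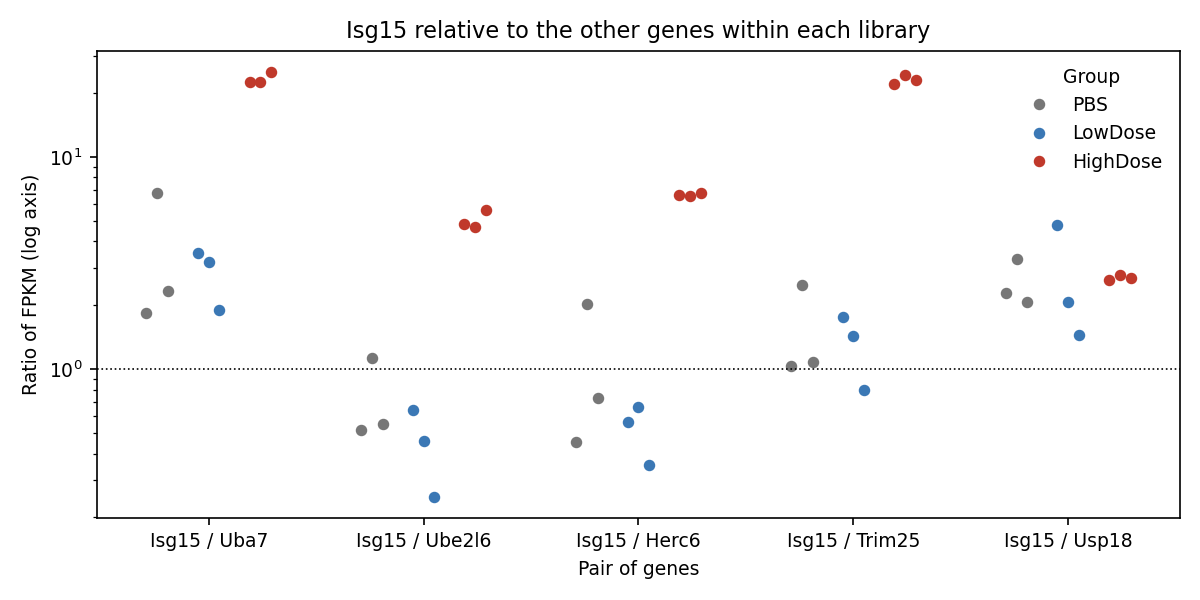
Ratio of Isg15 FPKM to the FPKM of each other member within a library (log axis, dotted line at equal levels), with PBS in grey, LowDose in blue and HighDose in red; points are libraries. HighDose stands above PBS and LowDose in 4 of the pairs, and lies among them for Usp18.

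The Isg15 promoter is shown because it holds motifs of the kind that interferon-activated factors bind. Promoters of 5 of the 6 members were found in the RefSeq table of build GRCm38.p6, which gives 300 bases around each start site (250 before and 50 after), and the core of the interferon-stimulated response element, written GAAA, any 2 bases, GAAA, was searched on both strands. The upstream 250 bases of Isg15 (chr4:156200819-156201068, minus strand) are given 5′ to 3′, with capitals on matches to this full motif or to its shorter form AANNGAAA, which overlap each other.
Isg15 promoter: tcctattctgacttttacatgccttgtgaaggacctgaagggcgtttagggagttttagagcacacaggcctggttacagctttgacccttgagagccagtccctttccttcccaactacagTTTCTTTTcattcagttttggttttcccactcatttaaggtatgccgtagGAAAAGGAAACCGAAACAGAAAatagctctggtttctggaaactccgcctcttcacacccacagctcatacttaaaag
It holds 3 overlapping copies of the full motif, which together span the bases from -78 to -57 relative to the start site. Of 32851 promoter windows of the same length, 3.44% hold this motif. The shorter AANNGAAA is held by 23.9% of the windows and was found in 3 of the 5 members: Isg15, Uba7 and Trim25. For Uba7 (chr9:107975530-107975557) and Trim25 (chr11:88999389-88999416), both on the plus strand, the stretches around it are the following, with the match in capitals. Their RefSeq start sites lie 62 and 27 bases inside the GENCODE transcripts, so both stretches are upstream or at the start by RefSeq but within the gene by GENCODE, and the Trim25 match runs from -4 to 4 across its RefSeq start.
Uba7 stretch: ctcagtctagTTTCACTTttggtttcct
Trim25 stretch: tcctgttcagTTTCGATTccttcctcgc
Ube2l6 and Herc6 held neither form in their windows, and the motif TTCNNNGAA, a gamma-activated sequence held by 8.30% of windows, was found in 0 of the 5. Usp18 was not searched. Whether a match goes with the size of change was not tested in these 5 genes. A match is a description of the letters and was not tested as a binding site.

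The 6 genes also varied together within HighDose. Replicate 1 was the lowest library and replicate 3 the highest for each of the 6. Replicate 3 exceeded replicate 1 by 1.83 times for Isg15, 1.79 times for Herc6, 1.78 times for Usp18, 1.76 times for Trim25, 1.65 times for Uba7 and 1.57 times for Ube2l6, in FPKM. The listed genes as a whole held 3.90%, 5.21% and 6.04% of the counts of HighDose replicates 1, 2 and 3, so their summed counts had the same order. The share of single genes with this order was not counted, so the order cannot be called particular to the 6.

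Summed levels of the immune cell, microglia and astrocyte markers followed the same order of HighDose replicates. Summed levels of the monocyte and macrophage markers (4 of 7 listed) were 140, 209 and 247 CPM in HighDose replicates 1 to 3, against 0.630 to 1.53 CPM in PBS. T cell markers (7 of 9 listed) summed to 8.55, 17.2 and 19.9 CPM in HighDose and to 0.194 to 0.599 CPM in PBS, where Cd3d was at 0 counts. Cytotoxic and natural killer markers (6 of 6 listed) summed to 32.6 to 55.1 CPM in HighDose and 0.0968 to 0.436 CPM in PBS, and B cell markers (4 of 4) to 2.76 to 5.72 CPM in HighDose and 0.600 to 0.922 CPM in PBS. Microglia markers (6 of 10 listed) summed to 396 to 457 CPM in HighDose and 174 to 221 CPM in PBS, with a median log2 change of 1.45 that turned to -0.23 under TMM and to -0.20 under DESeq2 size factors. Of these 6, 5 were called higher in HighDose, near the 86.3% of all tested genes. Tmem119 was among those 5 (log2 1.05 ± 0.22), while P2ry12, a receptor of resting microglia, was called lower (log2 -0.97 ± 0.22). The astrocyte filament gene Gfap, the 1 of 5 astrocyte markers listed, stood at 374 to 534 CPM in HighDose and 113 to 146 CPM in PBS, and its log2 change of 1.85 was no longer called under TMM (0.14) or DESeq2 size factors (0.17). The oligodendrocyte markers (2 of 5 listed) went the other way, with 641 to 864 CPM in HighDose and 1253 to 1716 CPM in PBS. Of neutrophil and neuron markers, 0 of 5 each were listed. In LowDose the monocyte markers summed to 0.963 to 1.77 CPM, the T cell markers to 0.254 to 0.854 CPM (Cd8b at 0 counts) and the cytotoxic markers to 0.267 to 0.315 CPM (Klrb1c at 0 counts). The part of these cells in the values of the ISG15 genes was not tested.

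In LowDose the ISG15 genes lay near PBS, and 0 of 6 passed the test (edgeR, 0 of 6 at an unadjusted p under 0.05, and 0 by DESeq2). The background in this comparison was low, with 0.442% of tested genes called higher and 2.15% called lower. With the replicate number as a block, 12 genes were called higher and 50 lower in place of 7 and 34, and still 0 members. Isg15 had 2.16, 1.85 and 0.91 FPKM in LowDose, inside the range of PBS except for replicate 3, and its log2 change was -0.41 ± 0.34 (adjusted p = 0.787, edgeR). Without PBS replicate 2, the highest PBS library, that value was 0.13 (adjusted p = 0.980). Usp18 had 0.45, 0.89 and 0.63 FPKM in LowDose and a log2 change of -0.36 ± 0.32 (adjusted p = 0.792, edgeR). Uba7 was at -0.24 ± 0.28 and Trim25 at -0.23 ± 0.23, with LowDose ranges of 0.48 to 0.61 and 1.14 to 1.29 FPKM that overlapped those of PBS.

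Ube2l6 and Herc6 had the higher values of the set in LowDose. Ube2l6 had 3.35, 4.03 and 3.63 FPKM in LowDose, each above the highest PBS library, and a log2 change of 0.41 ± 0.24 (adjusted p = 0.561, edgeR). Of all tested genes, 6.57% stood clear of PBS in this direction, so 1 of 6 is a count of a single gene. The deposited FPKM and count of Ube2l6 imply a transcript length of 1303 bases in 1 library, PBS replicate 2, against 1560 to 1562 bases in the others, and the CPM values, which do not use length, were 5.23 to 6.29 in LowDose and 3.98 to 4.84 in PBS. Herc6 had 3.85, 2.78 and 2.58 FPKM in LowDose, overlapping PBS, and a log2 change of 0.40 ± 0.24 (adjusted p = 0.575, edgeR).

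The ratio of Isg15 to each other member in LowDose was of the size seen in PBS, at 1.90 to 3.54 for Uba7, 0.251 to 0.645 for Ube2l6, 0.353 to 0.665 for Herc6, 0.798 to 1.76 for Trim25 and 1.44 to 4.80 for Usp18. Isg15 made up 14.8% ± 4.57 of the summed FPKM of the 6 genes in LowDose, against 20.6% ± 9.07 in PBS.

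HighDose was set against LowDose directly, with the same HighDose libraries as before. All 6 genes were higher in HighDose, where 88.1% of tested genes were called higher. The log2 changes were 7.51 ± 0.35 for Isg15, 7.42 ± 0.32 for Usp18, 4.53 ± 0.27 for Uba7, 4.03 ± 0.25 for Ube2l6, 3.89 ± 0.26 for Herc6 and 3.38 ± 0.24 for Trim25 (adjusted p from 1.19e-23 to 9.47e-17, edgeR). The members had a median of 4.28 and all tested genes a median of 1.88. The order differs from that against PBS only in that Uba7 stood above Ube2l6 and Herc6.

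**Figure D4:**
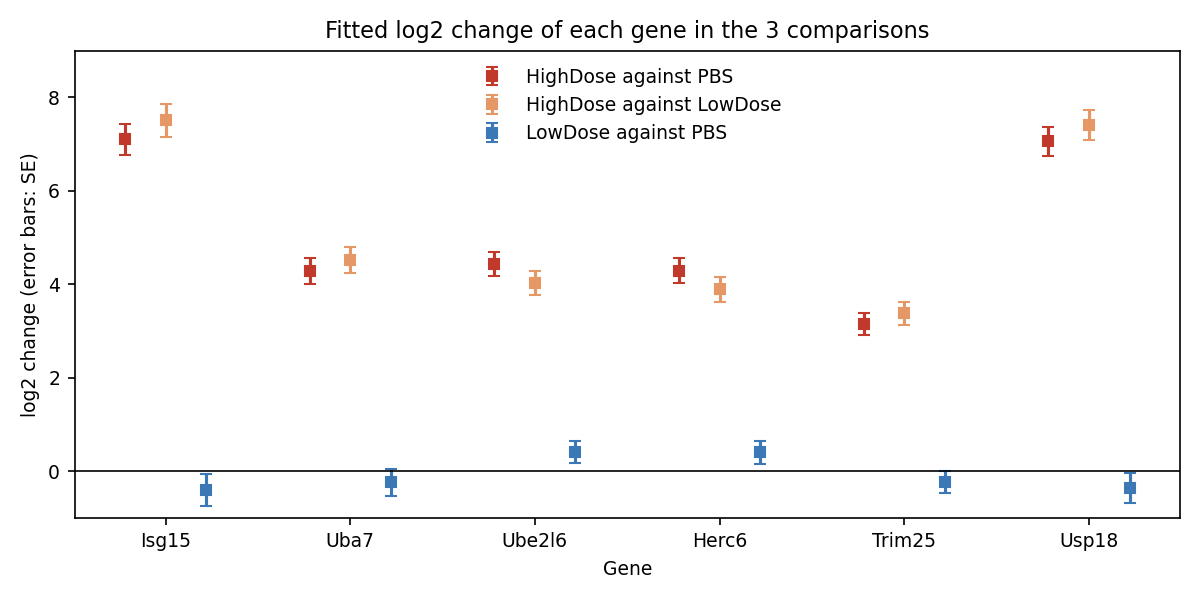
Fitted log2 change of each gene in the 3 comparisons (squares, error bars are SE). Isg15 and Usp18 stand near 7 in both comparisons that involve HighDose, the other genes between 3.15 and 4.53, and LowDose against PBS lies between -0.41 and 0.41.

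Genes around the system were read from set lists, chosen with earlier results of these data known. Of the genes that carry the interferon signal to these promoters (10 named, 6 listed, 5 tested), 5 were called higher in HighDose, near the 86.3% of all tested genes, with a median log2 change of 3.86. Under TMM or DESeq2 size factors 4 of them were called higher and 1 lower. The transcription factors Stat2 and Irf9, which act at interferon response elements, changed by 3.70 ± 0.24 and 3.86 ± 0.25, and Irf7, which amplifies interferon production, by 6.19 ± 0.29. The receptor chain Ifnar2, to which USP18 binds, had 16.6, 19.6 and 22.9 FPKM in HighDose and 9.37, 9.67 and 9.25 FPKM in PBS. Its log2 change of 0.98 ± 0.22 turned to -0.71 under TMM and -0.69 under DESeq2 size factors, since it lies below the median of all listed genes. Ifnb1, which encodes interferon beta, had 57 counts over the HighDose libraries and 0 over PBS, at least 17.2-fold higher when PBS is set to 3 counts in all, and was not tested.

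Of genes whose proteins are reported to carry ISG15, 10 of 17 were listed, and all 10 were called higher in HighDose, near the 86.3% of all tested genes, with a median log2 change of 5.39. Largest was Mx1, an antiviral GTPase, at 9.71 ± 0.42, followed by the translation blockers Ifit1 at 7.08 ± 0.31 and Ifit3 at 6.48 ± 0.29 and the virus tether Bst2 at 6.15 ± 0.29. The RNA sensors Rigi (listed under its older symbol Ddx58) and Ifih1 changed by 5.50 ± 0.27 and 5.29 ± 0.28, and the RNA-activated kinase Eif2ak2 by 4.87 ± 0.27. Cgas, the cytoplasmic DNA sensor, and its partner Sting1 changed by 2.12 ± 0.36 and 2.06 ± 0.26. Those last calls were lost under TMM, where Cgas stood at 0.39 (adjusted p = 0.183) and Sting1 at 0.36 (adjusted p = 0.0670), and the other 8 held. In LowDose 0 of the 10 were called (edgeR), with Mx1 nearest at 1.68 ± 0.49 (adjusted p = 0.0517). Mx1 had 10, 36 and 13 counts in the LowDose libraries, against 7, 8 and 2 in PBS, and without LowDose replicate 2 its value was 0.94 (adjusted p = 0.586, edgeR). Mx1 was called under several alternatives, among them the replicate block (adjusted p = 0.0161, edgeR) and no filter (adjusted p = 0.0330, edgeR). Others did not call it, among them TMM (adjusted p = 0.148, edgeR). Over all alternatives its adjusted p ran from 0.000353 to 0.586.

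Of all annotated genes, of every type and expressed or not, 3.07% are in the table. The share among genes of the kinds in the next lists was not counted, so 3.07% is only a rough background for them. Of 21 other modifiers and their activating enzymes, only Ubd was listed, which encodes the interferon-inducible modifier FAT10. It had 225 counts over the HighDose libraries and 2 over PBS, a ratio of 102 (95% counting interval 27.9 to 849, counting error only). Of 9 family relatives of the attaching enzymes, 0 were listed. Of 7 other proteases reported to cut ISG15, Usp25 was listed, at 15.4, 20.4 and 22.7 FPKM in HighDose and 8.27, 7.37 and 8.46 FPKM in PBS (log2 1.28 ± 0.21, but -0.43 under TMM and -0.40 under DESeq2 size factors). Both chains of LFA-1, a receptor for secreted ISG15, were called higher in HighDose than in PBS, near the 86.3% of all tested genes. Itgal changed by 3.91 ± 0.32 and Itgb2 by 2.53 ± 0.23, beside a median of 1.90 over all tested genes.

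Of the 1267 other named genes with a mean of at least 1 CPM, those whose levels followed Isg15 most closely over the 9 libraries were Oas1g, Ifi47, Ifi213, Gimap4 and Irf9 (Pearson r of 0.9973 to 0.9986 on log2 CPM with a pseudocount of 0.5). An r of at least 0.95 was reached by 687 of the 1267 genes, since the step between HighDose and the other 6 libraries dominates it and all points share their libraries. Over the 6 PBS and LowDose libraries alone, r for these genes was 0.77 (Irf9) to 0.96 (Ifi213), where Oas1g and Ifi213 averaged 0.0581 to 0.1002 CPM, under the level of 3 counts. With a pseudocount of 2 CPM, 1 of the 5 genes was named again. Among the members, r with Isg15 was 0.996 for Usp18, 0.994 for Trim25, 0.991 for Uba7, 0.986 for Ube2l6 and 0.978 for Herc6, and 23 non-members stood above Usp18.

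In GENCODE M21 on mm10, Isg15 (ENSMUSG00000035692) lies at chr4:156199424-156200818 on the minus strand, and the others lie on the plus strand. Uba7 (ENSMUSG00000032596) is at chr9:107975505-107984060, Ube2l6 (ENSMUSG00000027078) at chr2:84798828-84810335, Herc6 (ENSMUSG00000029798) at chr6:57581000-57664632, Trim25 (ENSMUSG00000000275) at chr11:88999376-89020293 and Usp18 (ENSMUSG00000030107) at chr6:121245906-121270917. Counts were whole numbers in all 9 libraries for each member but Trim25, which had 1 library that was not whole. Annotated exons overlap those of other genes for Herc6 (13.7% of its exonic bases, Gm45193, same strand), Uba7 (3.48%, Gm20661, same strand) and Usp18 (4.44%, Gm44148, opposite strand), so reads there could belong to either gene and their values are uncertain to that extent.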

How the data were processed

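RNA was sequenced from 9 libraries in 3 groups. The authors deposited estimated counts on build mm10, with edgeR and DESeq2 named without a role in the submitters' processing notes. FPKM per gene and library was deposited beside them, per the file headers. Aligner and counter: not given in the sources used here. Counts, 7.66% to 13.98% of them not whole, were rounded. Library totals came from count, FPKM and length of 23 to 68 genes with 1 transcript (FPKM at least 5, 100 counts, 600 bases), and served as scaling. Genes were kept with filterByExpr (minimum count 10), which left 1583, and compared with the quasi-likelihood test of edgeR 4.0.16 (R 4.3.3) in 1 model of 3 groups, with the Benjamini-Hochberg adjustment over all tested genes (threshold 0.05). SE was taken as log2 change divided by the root of F. A floor of 3 counts is 0.126 to 0.164 CPM. Ratios used scipy 1.17.1. The pipeline was tested on simulated data. Members and lists were chosen with earlier results of these data known. Named genes are the members, the listed genes of the lists and the 5 most like Isg15. Some list genes are counted but not reported here by name. Same-numbered libraries' deviations from their group means correlated by 0.137 to 0.246 in LowDose against PBS, over the 0.1 set for every pair. These numbers were thus taken from the data as possible pairs there, and a block for replicate number was fitted as an alternative. The main model held no block, and p-values are from it unless another setting is named. In the other comparisons the lowest correlation was -0.00571 and 0.0142, and the numbers were not taken as pairs. Other settings tried were scaling by TMM or DESeq2 1.42.0 size factors, its Wald test, no filter, a block for replicate number, other pseudocounts and leaving out each library.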

Additional observations from a re-analysis of the deposited data

How the results depend on the processing

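Of 252 member log2 changes under alternatives (14 settings in 3 comparisons), 251 kept their direction and side of the threshold, and 6, 0 and 6 members were called under each, in the order HighDose against PBS, LowDose against PBS, then HighDose against LowDose. The exception was Isg15 in LowDose against PBS, at 0.13 without PBS replicate 2 and -0.66 without PBS replicate 1. The ratio of Isg15 to Usp18 turned to -0.0240 without PBS replicate 3 and ranged up to 0.31 without 1 library, and the other 4 ratios kept their direction. TMM and DESeq2 size factors gave 600 and 605 higher and 464 and 455 lower calls in HighDose against PBS, where the totals gave 1366 and 169, and 565 and 576 higher and 461 and 445 lower in HighDose against LowDose, where the totals gave 1394 and 112. In LowDose against PBS both gave 3 and 3, where the totals gave 7 and 34, and leaving out 1 library gave 5 to 22 higher and 18 to 57 lower. With the replicate block Isg15 changed by -0.34 in LowDose against PBS and by 7.14 in HighDose against PBS, the Isg15 to Uba7 ratio by 2.93, and 12 genes were called higher and 50 lower in LowDose against PBS; it changed no call of a member. With a pseudocount of 2 CPM, 1 of the 5 genes most like Isg15 was named again. Low counts of Isg15 and Usp18 outside HighDose limit their precision there.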
